A study of Schizosaccharomyces pombe with 130 samples.

Results

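The non-coding RNAs of fission yeast were taken as every feature whose identifier begins with SPNCRNA., apart from sme2. These were 1528 of the 7021 features counted, set against 5098 protein-coding genes. Of the 1528, 1430 could be placed in the RefSeq annotation (build ASM294v3) by their identifier and 98 could not. The RefSeq annotation typed 1386 of those placed as lncRNA, 37 as ncRNA, 6 as snoRNA and 1 as snRNA. They were 56 to 5317 bases long with a median of 1034 bases, against 1797.5 bases for protein-coding genes. By position, 847 were antisense to a protein-coding gene, 214 divergent (starting within 500 bases of a gene on the opposite strand), 99 overlapped a gene on the same strand and 270 were otherwise intergenic. The set includes 64 RNAs called prl (polyadenylated RNAs without a long reading frame), 5 called meu (from cells in meiosis) and 29 others with names of their own.

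The study asked how the Ccr4-Not complex and other RNA decay factors act with heterochromatin, and it counted RNA in 3 ways. RIP measured RNA bound to RNA polymerase II phosphorylated at serine 2 (nascent RNA, 37 libraries), pA RNA is polyadenylated steady-state RNA (32 libraries), and total RNA was measured in 8 libraries. Cells grew in rich medium. The strains lacked decay or Ccr4-Not factors (mot2Δ, caf1Δ, ccr4Δ, rrp6Δ, exo2Δ, and caf1*ccr4* with point mutations of both deadenylase active sites) or heterochromatin and RNA interference factors (swi6Δ, clr3Δ, chp2Δ, mit1Δ, ago1Δ, clr4Δ). RIP also covered caf1Δago1Δ and, with 1 library each, ccr4Δ and caf1Δdcr1Δ. The pA libraries numbered 4 in chp2Δ, 3 in swi6Δ and ago1Δ and 2 in every other mutant, against 4 in wild type, of which 3 were of strain 63 (h+, untagged ago1) and replicate 2 of strain 65 (h90, FLAG-ago1). RIP had 4 libraries in mot2Δ and chp2Δ, 3 in swi6Δ, clr3Δ, mit1Δ, clr4Δ and caf1Δago1Δ, and 2 in caf1*ccr4*, rrp6Δ, caf1Δ, exo2Δ and ago1Δ, against 2 in wild type strain 63. Total RNA had 2 libraries each of caf1Δ, ago1Δ and clr4Δ, against 2 of wild type strain 65. By the study's strain table, clr4Δ, ago1Δ and clr3Δ were h+ with untagged ago1, rrp6Δ and exo2Δ were h+ with FLAG-ago1, and ccr4Δ, mot2Δ and caf1Δ strain 510 were h90 with FLAG-ago1. All of these and both wild-type strains carry a ura4+ reporter in the otr1R repeat of a centromere. Of the mot2Δ pA libraries, replicate 1 was of strain 1022 and replicate 2 of strain 1023, listed with the same genotype. The mot2Δ RIP libraries were all of strain 1022. swi6Δ and chp2Δ were h90 with mat3::ura4+, mit1Δ was h+ with imr1R::ura4+, and caf1*ccr4* and the caf1Δ strain 591, used in 1 RIP library, were h90 with otr1R::ade6+ and reporters beside telomeres. The caf1Δago1Δ libraries came from strain 523 (h90, otr1R::ura4+) and strain 524, and caf1Δdcr1Δ from strain 521, with no entry in that table for the last 2. By the same table rrp6Δ, mit1Δ, caf1*ccr4* and caf1Δ strain 591 also differed from wild type in nutritional markers such as the ade6 allele, while exo2Δ did not. A change in a mutant that differs from wild type in mating type, tag, reporter or these markers cannot be told apart from its strain background. The same holds for rrp6Δ set against exo2Δ. Every comparison within an assay used the same wild-type libraries, so repeated changes across mutants are not independent of each other. The study describes its replicates as biological, while the labels name no separate cultures, and p-values measure the spread between these samples.

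Depth on features ranged between 2817056 and 22003055 counts in pA RNA, 320014 and 5935811 in RIP and 771954 and 6703361 in total RNA. Counts of the deleted gene lay at 0.154 to 0.158% of wild type in rrp6Δ pA RNA, 1.21 to 1.33% in exo2Δ and 0.394 to 0.452% in ago1Δ. They stood at 30.4 to 59.7% in the libraries labelled swi6Δ and 75.4 to 107% in those labelled clr4Δ, so these counts do not show the deletion. The counts of caf1 were 17.1 to 51.7% of wild type in caf1Δ pA RNA, 11.7 to 48.8% in RIP libraries of caf1 deletions and 28.2 to 32.0% in total RNA, those of chp2 39.2 to 76.2% in chp2Δ RIP, and that of dcr1 52.1% in caf1Δdcr1Δ. Those of clr3 were 17.7 to 23.9% in clr3Δ pA RNA and 15.2 to 30.9% in RIP. Those of mot2 were 1.78 to 2.63% in mot2Δ pA RNA and 10.2 to 26.9% in RIP. The names swi6Δ, clr4Δ, caf1Δ, chp2Δ, clr3Δ, mot2Δ and caf1Δdcr1Δ stand below for the libraries so labelled, and the directions given for them rest on those labels. Replicates correlated at a Spearman rho of 0.888 to 0.999 in pA RNA, 0.849 to 0.984 in RIP and 0.74 to 0.835 in total RNA, across features.

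An antisense RNA is counted correctly only if the library keeps the strand. The level per length of antisense RNAs lying inside highly expressed genes was therefore expressed as a percentage of that of the gene. The median was 0.107 to 3.03% in 30 pA libraries and 0.317 to 8.56% in 28 RIP libraries. It was 15.7% in swi6Δ replicate 2 and 14.8% in chp2Δ replicate 2 of pA RNA. In RIP it was 22.1 to 52.7% in 9 libraries, replicates 1 and 2 of swi6Δ, clr3Δ, chp2Δ and mit1Δ and replicate 3 of clr4Δ. Strand separation was low in these 11 libraries, so the counts below are also given without them, a comparison chosen after seeing the data.

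In fission yeast, RNA polymerase II transcribes much of the genome beyond its protein-coding genes, and many of the products are short-lived. The nuclear exosome with its exonuclease Rrp6 degrades RNAs from the 3′ end in the nucleus, including cryptic and promoter-divergent transcripts and meiotic RNAs that the YTH protein Mmi1 recognises in growing cells. Exo2 (the Xrn1 exonuclease) degrades uncapped RNAs from the 5′ end in the cytoplasm, and the deadenylases Caf1 and Ccr4 of the Ccr4-Not complex shorten poly(A) tails before that step. At the centromeres, Ago1 with small RNAs and the methyltransferase Clr4 keep transcripts low through methylation of histone H3 at lysine 9 (H3K9me2), which Swi6 and Chp2 bind, while Clr3 and Mit1 belong to the SHREC complex that Chp2 recruits. A few SPNCRNA features are stable RNAs with housekeeping roles, such as srp7, the RNA of the signal recognition particle.

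Sequences are shown for 5 RNAs on which the results turn, each written 5′ to 3′ along the transcript from the RefSeq genome. Capitals mark TNAAAC, the core hexamer of Mmi1 sites, searched on the transcript strand. They are the starts of meu3 and SPNCRNA.1057, which stood far above wild type in rrp6Δ, and a stretch of the subtelomeric prl107, which has the strongest H3K9me2 signal. The others are a stretch of SPNCRNA.863, which was high in 4 mutants, and the whole of srp7, whose levels in pA RNA and RIP differed most.
meu3 (SPNCRNA.07, chrIII:42429-42728, minus strand): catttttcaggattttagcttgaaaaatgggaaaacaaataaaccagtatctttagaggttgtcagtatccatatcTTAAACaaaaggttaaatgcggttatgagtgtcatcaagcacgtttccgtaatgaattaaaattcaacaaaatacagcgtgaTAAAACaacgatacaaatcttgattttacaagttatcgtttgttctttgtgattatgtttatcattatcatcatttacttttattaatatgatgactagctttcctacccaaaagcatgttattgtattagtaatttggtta
SPNCRNA.1057 (chrI:5177861-5178160, minus strand): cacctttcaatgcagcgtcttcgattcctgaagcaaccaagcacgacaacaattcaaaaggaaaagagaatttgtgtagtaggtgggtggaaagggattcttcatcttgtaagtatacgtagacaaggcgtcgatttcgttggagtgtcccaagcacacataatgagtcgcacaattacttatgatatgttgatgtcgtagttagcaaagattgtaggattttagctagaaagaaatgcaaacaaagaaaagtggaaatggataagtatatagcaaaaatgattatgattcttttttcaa
prl107 (SPNCRNA.1704, chrI:5553083-5553382, minus strand): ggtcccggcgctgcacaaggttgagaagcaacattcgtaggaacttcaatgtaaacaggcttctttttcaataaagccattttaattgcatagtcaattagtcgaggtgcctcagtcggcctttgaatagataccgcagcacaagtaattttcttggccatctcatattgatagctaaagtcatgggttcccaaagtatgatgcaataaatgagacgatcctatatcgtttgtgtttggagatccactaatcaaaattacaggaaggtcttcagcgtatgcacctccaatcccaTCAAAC
SPNCRNA.863 (chrI:2939688-2939987, minus strand): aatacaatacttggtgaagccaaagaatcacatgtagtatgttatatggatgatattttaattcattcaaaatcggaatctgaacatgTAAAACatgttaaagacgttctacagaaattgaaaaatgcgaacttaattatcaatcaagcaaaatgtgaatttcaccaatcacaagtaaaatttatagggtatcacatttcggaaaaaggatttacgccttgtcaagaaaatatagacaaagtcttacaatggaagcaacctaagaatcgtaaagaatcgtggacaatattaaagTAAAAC
srp7 (SPNCRNA.98, chrI:4268662-4268916, plus strand): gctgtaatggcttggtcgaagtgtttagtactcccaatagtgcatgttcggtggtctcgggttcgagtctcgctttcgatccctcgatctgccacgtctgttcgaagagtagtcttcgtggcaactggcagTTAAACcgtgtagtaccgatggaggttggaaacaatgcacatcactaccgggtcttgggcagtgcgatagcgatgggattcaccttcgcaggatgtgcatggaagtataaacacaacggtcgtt
The hexamer occurred in 81.7% of the placed non-coding RNAs (1168 of 1430) at 1.99 per kb, and in 90.7% of protein-coding genes (4625 of 5098) at 1.76 per kb. A match of this hexamer alone is a description and not a binding site.

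In wild-type cells the non-coding RNAs were mostly low. Levels per length were given as TPM, scaled by the sum over the protein-coding genes. The median non-coding RNA had 5.6 TPM in pA RNA, 14.3 TPM in RIP and 6.05 TPM in total RNA, against 65.7, 107 and 47.9 TPM for the median protein-coding gene. Only 31 non-coding RNAs (2.03%) lay above the median gene in pA RNA, 88 (5.76%) in RIP and 87 (5.69%) in total RNA. In pA RNA 1107 non-coding RNAs had at least 10 counts in every wild-type library, and 58 had no count in any.

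**Figure D1:**
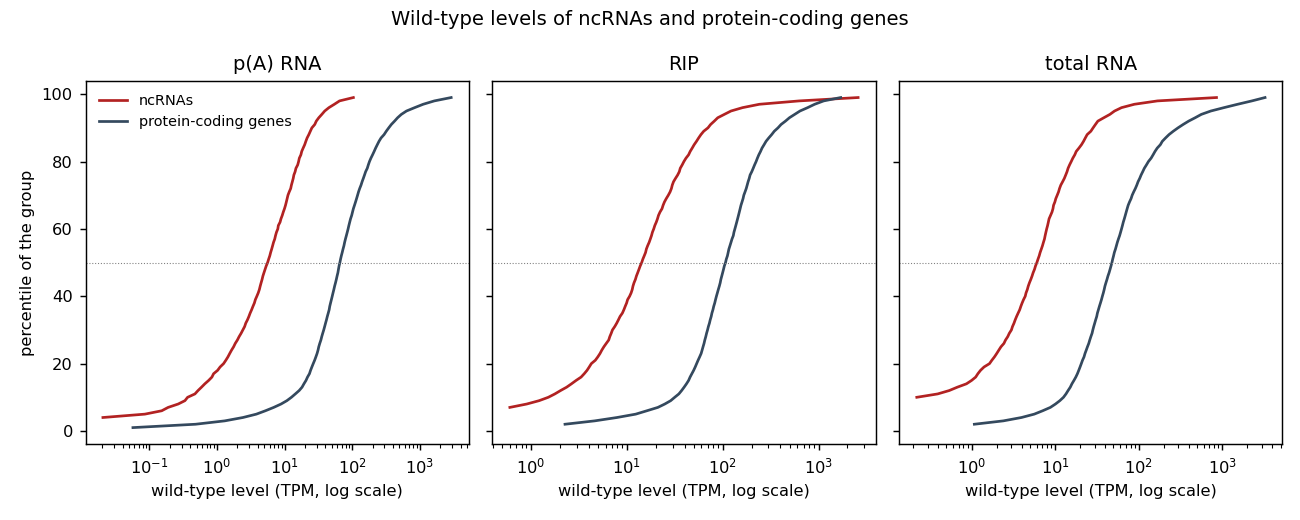
Wild-type level of each non-coding RNA and each protein-coding gene (x axis, TPM, log scale) against its percentile within its own class (y axis, percent), in pA RNA, RIP and total RNA. The non-coding curves lie to the left, with medians of 5.6, 14.3 and 6.05 TPM, and meet the protein-coding curve at the highest levels in RIP.

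The positional classes of non-coding RNA had medians in wild-type pA RNA of 6.06 TPM for antisense, 5.38 TPM for divergent, 7.29 TPM for same-strand and 2.13 TPM for other intergenic RNAs. RNAs with names stood at 13.7 TPM in pA RNA and 95.1 TPM in RIP. The highest in pA RNA were prl53 (SPNCRNA.53), at 2960, 3310, 2270 and 2110 TPM in the 4 libraries, and prl3 (SPNCRNA.03), at 366, 943, 1760 and 2180 TPM. Both overlap a gene on the same strand, SPAC27E2.11c and SPAC806.11, and reads in the overlap cannot be told apart.

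In RIP and total RNA other RNAs led. The signal recognition particle RNA srp7 (SPNCRNA.98) had 17300 and 26700 TPM in RIP and 565000 and 140000 TPM in total RNA, but 14.9, 13.2, 40.4 and 33.5 TPM in pA RNA. mrp1 (SPNCRNA.82), the RNA of ribonuclease MRP, which cuts ribosomal precursor RNA, had 8410 and 23800 TPM in RIP, 38200 and 6990 TPM in total RNA and 25.2, 16, 21.3 and 51.4 TPM in pA RNA. rrk1 (SPNCRNA.128), the RNA of ribonuclease P, had 6970 and 10400 TPM in RIP, 8100 and 1000 TPM in total RNA and 15.4, 16, 25.3 and 43.1 TPM in pA RNA. The telomerase RNA ter1 (SPNCRNA.214) had 187 and 597 TPM in RIP and 12.0, 15.5, 23.6 and 20.9 TPM in pA RNA. The wild-type total RNA libraries differed widely in all of them, and the non-coding share of all counts was 16.3% and 5.21%.

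Non-coding RNAs had less pA RNA relative to RIP than protein-coding genes did. In wild type the median log2 ratio was −1.80 over 580 non-coding RNAs and −0.66 over 4751 genes, a difference of −1.14. These had at least 10 counts in every wild-type library of both assays. In RIP 596 non-coding RNAs and 4754 genes reached this cut, in pA RNA 1107 and 4940. The cut thus chose non-coding RNAs mainly by their RIP counts, which can lower their ratio. Over the 8 pairs of 1 pA and 1 RIP library the difference lay between −1.56 and −0.73, so it kept its sign in every pair. The classes overlapped, and 108 non-coding RNAs lay above the median gene. The ratios were lowest for srp7, mrp1 and rrk1, which carry no poly(A) tail as mature RNAs. The paper allows that RIP may also catch chromatin-bound RNA, and how much of their RIP level was nascent was not tested. The log2 differences of these RNAs to the median gene were −9.10, −8.49 and −7.79. By class these differences had medians of −1.55 for same-strand, −1.15 for antisense, −0.74 for other intergenic and −0.59 for divergent RNAs. The difference was −0.78 with every RNA of 1 count or more in each library, and −0.85 without RIP wild-type replicate 2. Against total RNA the difference was −0.58 over 613 non-coding RNAs, but its sign turned with 1 library, at 0.35 without wild-type replicate 2 of total RNA and −1.26 without replicate 3.

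More non-coding RNAs were higher than wild type in pA RNA of rrp6Δ than of any other mutant, with all libraries used. Of 1432 non-coding RNAs tested by edgeR's quasi-likelihood test, 607 (42.4%) were higher in rrp6Δ than in wild type and 37 (2.58%) lower at a Benjamini-Hochberg adjusted p under 0.05. Of all features tested 19.1% were higher and 16.4% lower, and of protein-coding genes 11.8% were higher and 20.7% lower. The median log2 fold change was 1.10 for non-coding RNAs and −0.13 for genes. In these bulk samples a larger share of expressing cells and more RNA per cell cannot be told apart. Without the libraries of low strand separation, which include none of rrp6Δ or wild type, 693 were higher and 46 lower. Leaving out 1 library at a time gave 405 to 704 calls in place of 644, the lowest without rrp6Δ replicate 2. The antisense share of the opposite gene in rrp6Δ libraries (0.931 and 0.844%) lay within the wild-type range of 0.107 to 1.73%.

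**Figure D2:**
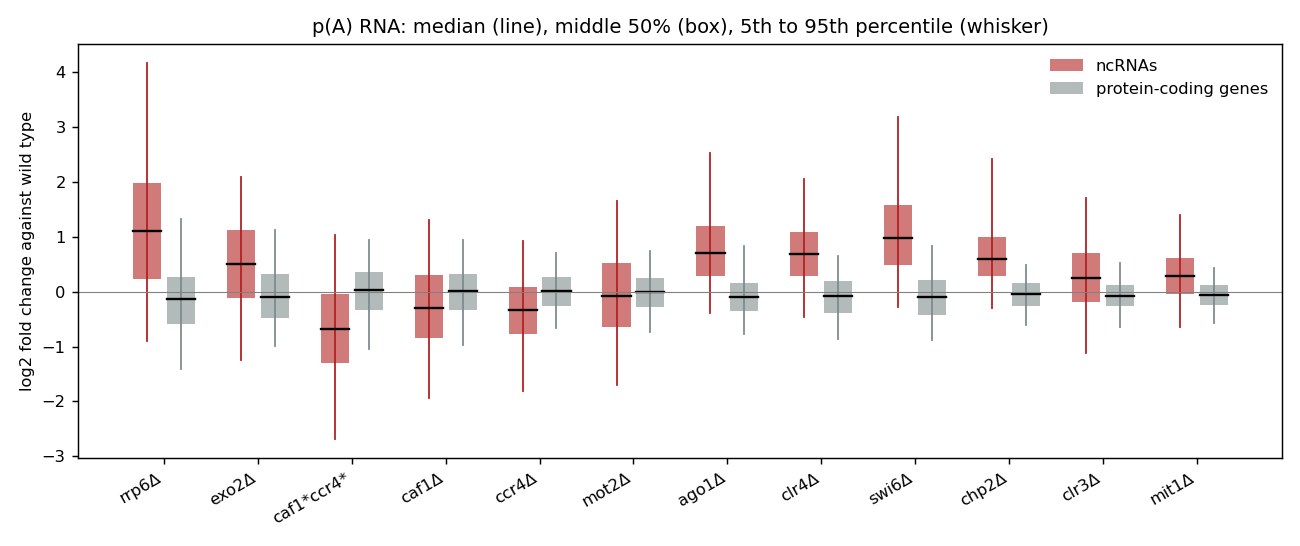
Log2 fold change of pA RNA in each mutant over wild type (y axis), for non-coding RNAs and protein-coding genes side by side. Lines mark medians, boxes the middle 50% and whiskers the 5th to 95th percentile. The non-coding median lies highest in rrp6Δ (1.10) and lowest in caf1*ccr4* (−0.68), while the gene medians stay between −0.13 and 0.02.

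In rrp6Δ non-coding RNAs made up 5.16 and 5.27% of all pA counts, against 1.67, 2.16, 2.18 and 2.7% in wild type, 2.39 times as much and without overlap. In exo2Δ they made up 3.21 and 3.56%, also above every wild-type library. The ago1Δ libraries had a mean of 3.20% ± 0.0802 (SD, n = 3), against 2.18% ± 0.421 (SD, n = 4) in wild type. The 3 Ccr4-Not strains caf1*ccr4*, caf1Δ and ccr4Δ had means of 1.86, 1.94 and 1.81%, and their libraries overlapped with wild type.

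**Figure D3:**
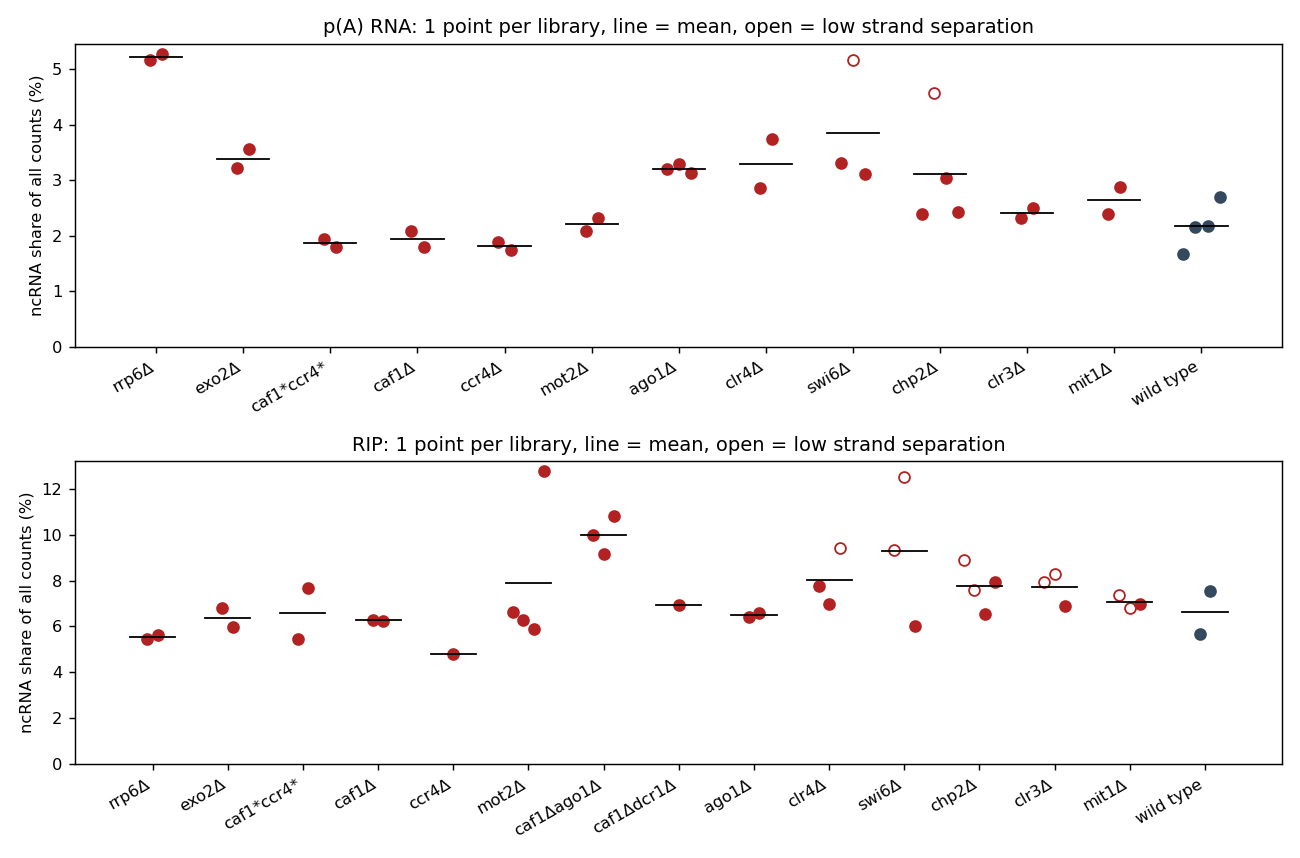
Percent of counts on non-coding RNAs in each library (y axis), by genotype with wild type at the right, in pA RNA and RIP. Points are libraries, open where the strands separated poorly, and lines are means. The 2 rrp6Δ pA libraries (5.16 and 5.27%) lie above every other pA library that separated the strands well.

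RNAs of every positional class were higher in rrp6Δ. Divergent RNAs were higher in 113 of 195 tested (median log2 fold change 1.59), other intergenic RNAs in 92 of 216 (1.22), antisense RNAs in 335 of 840 (1.02) and same-strand RNAs in 32 of 96 (0.60). Of the prl RNAs 32 of 62 were higher and none lower. Of the RNAs with other names 16 of 23 were higher and 2 lower, the antisense RNAs tos1 and tos2. As tos2 lies within tos1 on the same strand, these 2 calls are not independent. Subtelomeric RNAs, within 100 kb of an end of chromosome I or II, were higher in 22 of 42.

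meu3 (SPNCRNA.07, chromosome III, 41985 to 42728, minus strand), whose start is shown above, was first found in meiotic cells. Its pA level was 70.8 and 70.5 CPM (counts relative to library size, TMM-scaled) in rrp6Δ and 3.80 and 4.02 CPM in exo2Δ, against 0.391, 0.452, 1.58 and 1.39 CPM in wild type. The rrp6Δ libraries stood far above all others, with a log2 fold change over wild type of 6.21 ± 0.70 (SE; edgeR adjusted p = 6.56e-07). In RIP it had 6.09 and 8.81 CPM in rrp6Δ and no count in both wild-type libraries, at least 17.8-fold higher when wild type is set at 3 counts over the group. meu19 (SPNCRNA.29) had 78.4 and 72.5 CPM of pA RNA in rrp6Δ, against 4.43, 3.35, 5.91 and 9.43 CPM in wild type. meu3 and meu19 share sequence, with 61.7% of the 50-base windows of meu3 found in meu19, so their counts are not independent.

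SPNCRNA.1057 (chromosome I, 5177805 to 5178160, minus strand) is divergent from etr1 and contains no TNAAAC in its 356 bases. It had 87.6 and 91.7 CPM of pA RNA in rrp6Δ and 1.51 and 2.73 CPM in exo2Δ, against 1.43, 1.35, 1.10 and 2.55 CPM in wild type. The rrp6Δ libraries stood far above all others, at a log2 fold change of 5.80 ± 0.56 (adjusted p = 5.22e-08). In RIP it had 84.3 and 82.4 CPM in rrp6Δ, against 1.51 and 1.64 CPM in wild type (log2 fold change 5.69, adjusted p = 7.45e-05).

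SPNCRNA.584 (lncRNA584, antisense to ski3, a subunit of the cytoplasmic Ski complex) had 54.6 and 58.0 CPM of pA RNA in rrp6Δ, against 0.196, 1.23, 0.825 and 0.309 CPM in wild type. In RIP it had 55.2 and 44.6 CPM in rrp6Δ, against 14.1 and 4.09 CPM in wild type. SPNCRNA.392, an intergenic RNA, had 26.8 and 23.7 CPM of pA RNA in rrp6Δ, against 0.261, 0.645, 0.137 and 0.309 CPM in wild type. SPNCRNA.441, divergent from the coatomer gene sec27, had 11.6 and 11.7 CPM in rrp6Δ, against 0.196, 0.0645, 0.206 and 0.155 CPM in wild type. Groups overlapped in none of these, and the log2 fold changes of SPNCRNA.392 and SPNCRNA.441 were 6.17 and 6.15.

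Of the 16 RNAs with names that were higher in rrp6Δ pA RNA, mrp1 had a log2 fold change of 4.10 ± 0.41 (edgeR adjusted p = 8.76e-08), rrk1 2.39, srp7 2.40 ± 0.69 (adjusted p = 0.00908) and the telomerase RNA ter1 1.24 ± 0.26 (adjusted p = 0.000742). nc-tgp1, transcribed across the tgp1 promoter, rose by 4.05 ± 0.35 (adjusted p = 8.31e-09) and nc-pho1, across the pho1 promoter, by 1.5 (adjusted p = 0.00613). The fall of nc-pho1 in exo2Δ was −1.92 (adjusted p = 0.00552), and rrp6Δ over exo2Δ gave 3.41. nc-pho1 was also lower in caf1*ccr4* (−2.19, adjusted p = 0.0031), caf1Δ (−2.74) and ccr4Δ (−1.74). Both nc-tgp1 and nc-pho1 overlap their gene, tgp1 or pho1, on the same strand, and reads in the overlap cannot be told apart.

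omt3 (SPNCRNA.130) had 94.4 and 105 CPM of pA RNA in rrp6Δ and 23.3 and 26.6 CPM in exo2Δ, against 1.11, 3.94, 2.54 and 2.16 CPM in wild type. Both mutants lay above all wild-type libraries, with log2 fold changes of 5.35 ± 0.77 (adjusted p = 1.49e-05) in rrp6Δ and 3.35 (adjusted p = 0.00269) in exo2Δ.

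A few RNAs moved the other way. tos2 (SPNCRNA.131), antisense to the meiotic recombination gene rec7, had 7.29 and 7.39 CPM in rrp6Δ and 60.7 and 54.7 CPM in exo2Δ, against 16.6, 15.0, 20.2 and 26.9 CPM in wild type. The rrp6Δ libraries lay below and the exo2Δ libraries above every wild-type library, with log2 fold changes of −1.42 ± 0.25 (edgeR adjusted p = 0.000134) and 1.55 (adjusted p = 3.15e-05). rrp6Δ over exo2Δ gave −2.97 (adjusted p = 1.06e-07). SPNCRNA.742, antisense to SPAC9.08c, had 1.78 and 1.61 CPM in rrp6Δ, against 66.4, 6.13, 15.2 and 32.6 CPM in wild type (log2 fold change −4.14, adjusted p = 0.00496), with wild-type libraries far apart from each other.

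**Figure D4:**
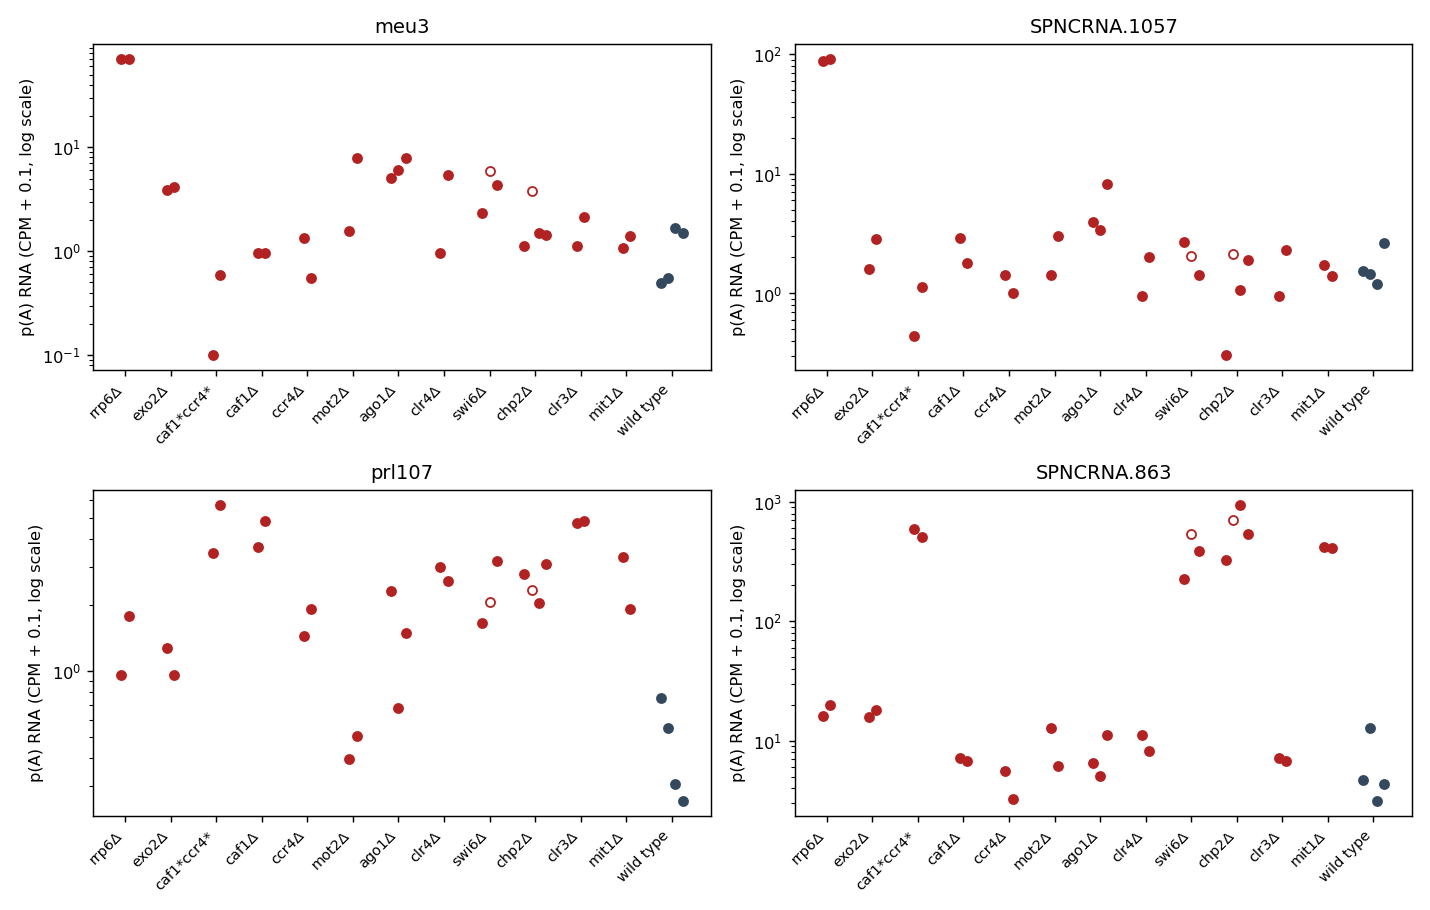
pA level of meu3, SPNCRNA.1057, prl107 and SPNCRNA.863 in every library (y axis, CPM plus 0.1, log scale), by genotype with wild type at the right. Points are libraries, open where the strands separated poorly. meu3 and SPNCRNA.1057 are high in rrp6Δ, prl107 is above wild type in most mutants, and SPNCRNA.863 stands at 225 to 942 CPM in caf1*ccr4*, swi6Δ, chp2Δ and mit1Δ.

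Fewer non-coding RNAs changed in cells without the cytoplasmic exonuclease Exo2. In exo2Δ 281 of 1432 (19.6%) were higher in pA RNA and 28 (1.96%) lower, against 12.8 and 8.98% of all features and 10.5 and 11.2% of genes, with a median log2 fold change of 0.50. The counts were 334 and 40 without the libraries of low strand separation. Leaving out exo2Δ replicate 2 left 120 calls of 309, and leaving out wild-type replicate 4 gave 392. Antisense RNAs were higher in 175 of 840, other intergenic in 45 of 216 and divergent in 29 of 195. Subtelomeric RNAs were higher in 20 of 42, with a median log2 fold change of 1.60.

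SPNCRNA.1093 (subtelomeric, antisense to SPAC869.09) had 24.2 and 31.7 CPM of pA RNA in exo2Δ, against 1.56, 0.452, 0.825 and 2.01 CPM in wild type (log2 fold change 4.52, edgeR adjusted p = 1.68e-05). SPNCRNA.1525, antisense to the cohesin gene psm1, had 28.2 and 33.6 CPM in exo2Δ, against 2.48, 2.13, 2.54 and 3.79 CPM in wild type. SPNCRNA.1123, antisense to lat1, a subunit gene of pyruvate dehydrogenase, had 6.09 and 7.33 CPM in exo2Δ, against 0.13, 0.0645, 0.275 and 0.464 CPM in wild type. No exo2Δ library overlapped with wild type in any of these. SPNCRNA.426, which has no position in the annotation, had 281 and 287 CPM in exo2Δ, against 46.8, 57.7, 57.9 and 79.2 CPM in wild type, while its RIP level was 87.6 and 82.3 CPM in exo2Δ and 78.4 and 64.7 CPM in wild type. The log2 difference of its pA and RIP changes was 1.97 (adjusted p = 0.000146).

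Set directly against exo2Δ, rrp6Δ had 282 non-coding RNAs (19.7%) higher in pA RNA and 87 (6.08%) lower, against 10.6 and 9.45% of all features. Divergent RNAs were higher in rrp6Δ in 71 cases and lower in 8, with a median log2 difference of 1.17, whereas 5 subtelomeric RNAs were higher and 5 lower. SPNCRNA.915, antisense to pan3, whose protein belongs to the Pan2-Pan3 deadenylase, had 53.8 and 53.4 CPM in rrp6Δ, against 0.655 and 0.934 CPM in exo2Δ (log2 difference 6.06). Leaving out 1 library at a time gave 147 to 216 calls in place of 369.

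The change in pA RNA was also set against the change in nascent RNA, in 1 fit with an interaction of assay and genotype. In rrp6Δ 106 of 1449 non-coding RNAs (7.32%) rose more in pA RNA than in RIP and 2 (0.138%) less, against 3.34 and 2.79% of all features and 1.78 and 3.63% of genes. In exo2Δ 14 (0.966%) rose more and none less, against 0.557 and 0.0301% of all features. Leaving out RIP rrp6Δ replicate 2 left 39 calls in rrp6Δ, and leaving out RIP exo2Δ replicate 1 left 2 in exo2Δ. SPNCRNA.242, one of the largest, had 505 and 530 CPM of pA RNA in rrp6Δ, against 9.26, 4.13, 13.1 and 24.8 CPM in wild type, but its RIP wild-type libraries, at 896 and 3800 CPM, differed from each other.

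In the nascent RNA itself few non-coding RNAs changed in these mutants. rrp6Δ had 10 of 1383 higher (0.723%) and 6 lower (0.434%), against 1.56 and 0.81% of all features, with a median log2 fold change of 0.06. exo2Δ had 1 higher and 7 lower, against 1.05 and 0.428% of all features. The counts were 19 and 17 in rrp6Δ and 2 and 14 in exo2Δ without the libraries of low strand separation.

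In caf1*ccr4*, caf1Δ and ccr4Δ more non-coding RNAs were lower than higher, with each library left out in turn as well. In caf1*ccr4* pA RNA 195 of 1432 non-coding RNAs (13.6%) were lower and 29 (2.03%) higher, against 8.18 and 9.29% of all features and 6.75 and 11.4% of genes, with medians of −0.68 for non-coding RNAs and 0.02 for genes. In caf1Δ 138 were lower and 22 higher (background 6.97 and 6.61% of all features), and in ccr4Δ 48 were lower and 7 higher (1.79 and 1.91%). mot2Δ, with replicate 1 of strain 1022 and replicate 2 of strain 1023, had 52 lower and 25 higher (2.55 and 2.38%), with a median of −0.08. In caf1*ccr4* 228 were lower and 37 higher without the libraries of low strand separation. Of divergent RNAs 33 of 195 were lower and 1 higher in caf1*ccr4*, with a median log2 fold change of −1.09. Of 224 calls in caf1*ccr4*, 83 were left without replicate 1 and 50 without replicate 2. Likewise 70 or 67 of 160 were left without either caf1Δ library, and 13 or 7 of 55 without either ccr4Δ library. In mot2Δ the direction rested on replicate 1, since 18 of 77 were left without it, 12 higher and 6 lower, while 49 and 46 were left without wild-type replicates 3 and 4.

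Among RNAs lower in the Ccr4-Not mutants, SPNCRNA.113 had 2.10 and 1.95 CPM in caf1Δ, against 29.9, 16.5, 52.3 and 85.9 CPM in wild type (log2 fold change −4.50). SPNCRNA.1338, antisense to SPBC1773.12, had 0.296 and 0.808 CPM in mot2Δ, against 12.6, 15.0, 15.8 and 24.8 CPM in wild type (−4.81, edgeR adjusted p = 4.38e-07). meu11 (SPNCRNA.17) had no count in caf1*ccr4*, against 3.52, 1.03, 3.23 and 3.09 CPM in wild type, at least 15.7-fold lower when the mutant is set at 3 counts over the group.

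Other antisense RNAs rose. SPNCRNA.1223, antisense to SPCC191.10, had 12.8 and 9.85 CPM in caf1*ccr4*, 14.2 and 7.51 CPM in caf1Δ, 5.78 and 7.96 CPM in ccr4Δ and 5.92 and 1.70 CPM in mot2Δ, against 0.261, 0.903, 0.481 and 0.464 CPM in wild type. All 8 mutant libraries lay above wild type, at log2 fold changes of 4.39 (edgeR adjusted p = 8.61e-05), 4.33 (0.00015), 3.67 (0.00192) and 2.80 (0.0103), with the wild type shared. SPNCRNA.1148, antisense to taf5 of the transcription factor TFIID, had 55.4 and 26.5 CPM in ccr4Δ, against 0.913, 0.968, 1.10 and 2.32 CPM in wild type (4.95, adjusted p = 1.88e-05). SPNCRNA.1454, antisense to SPBC19C2.10, had 57.9 and 26.8 CPM in caf1Δ and 48.2 and 24.5 CPM in mot2Δ, against 3.59, 4.52, 5.02 and 6.57 CPM in wild type (3.11 and 2.88).

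In RIP of the Ccr4-Not mutants, mot2Δ had 11 non-coding RNAs higher and 17 lower of 1383, against 0.734 and 1.65% of all features, and caf1*ccr4* 20 higher and 30 lower, against 1.91 and 3.33%. caf1Δ had 3 higher and 6 lower, against 0.367 and 0.443%. The double mutant caf1Δago1Δ had 20 higher (1.45%) and 47 lower (3.40%), against 4.42 and 5.73% of all features. Without the libraries of low strand separation these were 27 and 22 in mot2Δ, 39 and 38 in caf1*ccr4*, 11 and 18 in caf1Δ and 39 and 54 in caf1Δago1Δ. Without wild-type replicate 2 the calls were 10 in mot2Δ, 9 in caf1*ccr4* and 21 in caf1Δago1Δ, and without caf1*ccr4* replicate 2 they were 196. The single libraries of ccr4Δ and caf1Δdcr1Δ allow no test. Counting RNAs at least 2-fold beyond both wild-type libraries, ccr4Δ had 112 higher and 220 lower, against 3.47 and 6.08% of all features, and caf1Δdcr1Δ 286 higher and 23 lower, against 7.12 and 0.948%.

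Heterochromatin and RNA interference mutants differed widely in their numbers of changed non-coding RNAs in pA RNA. In ago1Δ 194 of 1432 (13.5%) were higher and 4 lower, against 5.97 and 3.21% of all features, with a median log2 fold change of 0.71. In swi6Δ 369 (25.8%) were higher and 3 lower, against 9.41 and 8.17% of all features, but without the libraries of low strand separation 83 were higher and 2 lower and the median went down to 0.48, against 0.98 with all libraries. The libraries labelled clr4Δ had 19 higher and none lower, against 0.939 and 0.288%. clr3Δ had 10 higher and 15 lower (0.606 and 0.591%), chp2Δ 3 higher and none lower (0.318 and 0.0303%) and mit1Δ 2 higher and 1 lower (0.197 and 0.0909%).

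These counts moved with single libraries. In ago1Δ they lay between 70 (without ago1Δ replicate 3) and 367 (without wild-type replicate 4), and in clr4Δ between 2 (without clr4Δ replicate 2) and 221 (without wild-type replicate 4). In swi6Δ they lay between 53 (without wild-type replicate 1) and 591 (without wild-type replicate 4). In clr3Δ 4 of 25 calls were left without clr3Δ replicate 2. Without the libraries of low strand separation 323 RNAs were higher in ago1Δ and 62 in clr4Δ, where neither the mutant nor wild type lost a library.

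**Figure D5:**
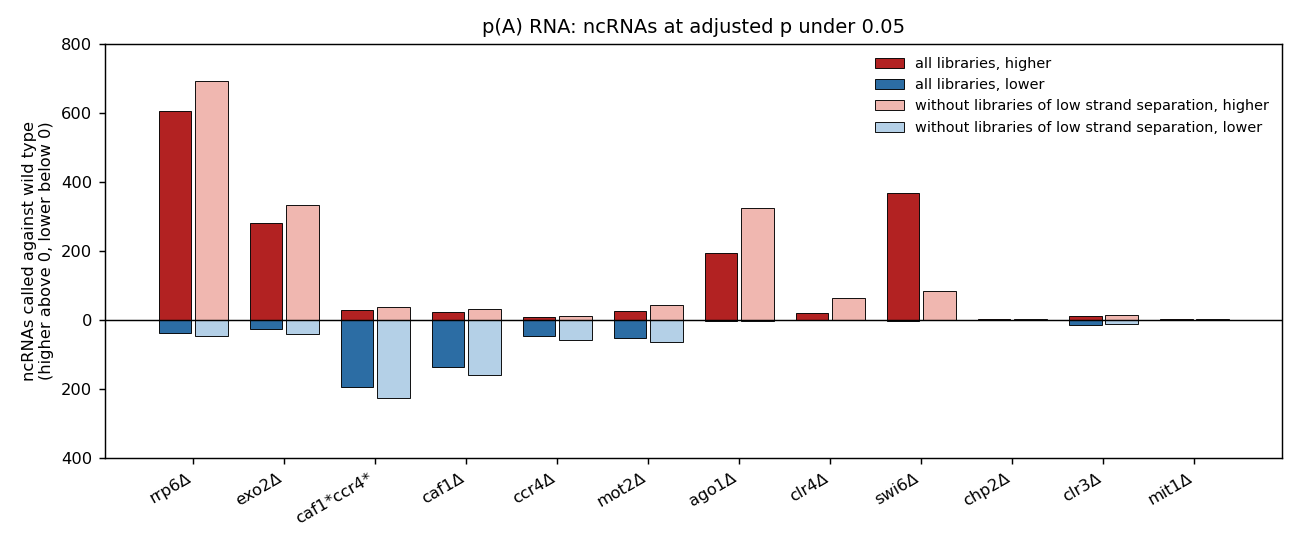
Number of non-coding RNAs higher and lower than wild type in pA RNA of each mutant (y axis, edgeR adjusted p under 0.05), with all libraries and without those of low strand separation. Both counts are highest in rrp6Δ (607 and 693 higher), and swi6Δ has 369 higher with all libraries and 83 without.

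SPNCRNA.757, antisense to the mitochondrial Hsp70 gene ssc1, had 30.6, 43.5 and 78.7 CPM in ago1Δ, 9.76 and 28.0 CPM in clr4Δ and 65.9, 10.7 and 17.4 CPM in swi6Δ, against 0.652, 1.03, 0.344 and 0.773 CPM in wild type. Every mutant library lay above wild type, at log2 fold changes of 6.16 (edgeR adjusted p = 1.66e-05), 4.75 (0.000887) and 5.46 (0.000225, and 8.16e-06 without the libraries of low strand separation). SPNCRNA.1475, antisense to tra1, had 3.58, 7.62 and 13.4 CPM in ago1Δ, with a log2 fold change of 5.05 (adjusted p = 2.43e-05). SPNCRNA.665, antisense to the sphingolipid gene aur1, had 15.4, 25.8 and 44.3 CPM in ago1Δ, with a log2 fold change of 5.27. By contrast SPNCRNA.1225 in swi6Δ rested on replicate 2, at 1.72, 29.5 and 1.26 CPM, and its log2 fold change of 4.67 (adjusted p = 0.0329) was 1.77 (adjusted p = 0.29) without the libraries of low strand separation.

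Genes opposite the changed antisense RNAs were counted too. Of 331 genes opposite an antisense RNA higher in rrp6Δ, 19.6% were higher and 20.8% lower in pA RNA, against 11.8 and 20.7% of all protein-coding genes. Opposite the 170 higher in exo2Δ, 18.8% were higher and 8.82% lower, against 10.5 and 11.2%. Opposite the 125 higher in ago1Δ, 4.80% were higher and 1.60% lower, against 3.51 and 4.13%. The share of lower genes was thus near or below that of all genes in each of these mutants. The part of strand separation in genes and antisense RNAs moving together was not tested.

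The centromeric RNAs, 32 within the longest stretches without a protein-coding gene on each chromosome, were near 0 in wild type. In wild-type pA RNA 25 of the 32 had no count in any library. Summed over all 32 they had 32.0 to 36.5 CPM in ago1Δ, 29.9 to 46.7 CPM in clr4Δ and 28.0 to 28.7 CPM in rrp6Δ, against 1.5 to 7.81 CPM in wild type. These did not overlap with wild type, while exo2Δ and all other mutants did, with exo2Δ at 5.57 to 6.11 CPM. Only 5 of the 32 had a count in each rrp6Δ library. In RIP the sum was 50.9 to 64.9 CPM in clr4Δ, 38.9 to 54.4 CPM in ago1Δ, 33.6 to 62.1 CPM in clr3Δ and 42.1 to 48.1 CPM in caf1Δago1Δ, against 9.09 to 10.6 CPM in wild type. It was also above wild type, without overlap, in mot2Δ (20.5 to 41.4 CPM), caf1Δ (25.1 to 27.8 CPM), mit1Δ (24.0 to 24.9 CPM), chp2Δ (16.1 to 32.7 CPM) and caf1*ccr4* (18 to 24.5 CPM). It overlapped with wild type in swi6Δ and rrp6Δ and was lower in exo2Δ, at 5.26 to 7.66 CPM. Several of these RIP sums rest on few counts, with 6 and 12 in exo2Δ and 13 in wild-type replicate 2. The exo2Δ difference may thus be counting error. In total RNA the sum was 15.2 to 34.1 CPM in ago1Δ and 26.3 to 28.0 CPM in clr4Δ, against 1.15 to 2.16 CPM in wild type. The wild-type sums there were 2 and 11 counts. Of these 32, 26 (81.2%) share most of their 50-base windows with other places of the genome, against 44 of 1430 (3.08%) of all placed members, and the assignment of their reads is uncertain.

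SPNCRNA.231 had 5.67, 3.23 and 4.21 CPM of pA RNA in ago1Δ and 1.15 and 5.56 CPM in clr4Δ, against no count in 4 wild-type libraries. With wild type set at 3 counts over the group, this was at least 84.9-fold higher in ago1Δ and at least 65.2-fold in clr4Δ. SPNCRNA.234 had 4.63, 5.05 and 3.26 CPM in ago1Δ and 5.17 and 3.17 CPM in clr4Δ, also against no count in wild type. SPNCRNA.359, on chromosome II between 1602773 and 1604997, had 12.9, 10.8 and 17.2 CPM in ago1Δ, 20.7 and 18.6 CPM in clr4Δ, 8.76 and 8.27 CPM in rrp6Δ and 0.343, 0.705 and 0.393 CPM in swi6Δ, against 0.913, 2.77, 3.37 and 4.48 CPM in wild type. The first 3 mutants lay above wild type and swi6Δ below it, at log2 fold changes of 2.24 (edgeR adjusted p = 0.00166), 2.77 (0.00109), 1.56 (0.0112) and −2.50 (0.00657). It recurs in other places of the genome over 70.0% of its windows.

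In pA RNA the subtelomeric RNAs did not follow the centromeric ones. Their 47 members summed to 2260 to 2340 CPM in rrp6Δ, 1080 to 1180 CPM in exo2Δ and 913 to 981 CPM in chp2Δ, against 504 to 865 CPM in wild type. Of the Ccr4-Not mutants, caf1Δ, ccr4Δ and caf1*ccr4* lay below wild type, at 318 to 394 CPM in caf1Δ, 392 to 431 CPM in ccr4Δ and 449 to 487 CPM in caf1*ccr4*, while mot2Δ, at 565 to 633 CPM, lay within its range. The ago1Δ and clr4Δ sums, 705 to 810 and 563 to 776 CPM, overlapped with wild type. All these sums give much weight to nc-pho1, which had 196 TPM in wild-type pA RNA. Over the 47 the median was 1.67 TPM and the 90th percentile 15.0 TPM. By itself nc-pho1 was higher in rrp6Δ and lower in exo2Δ, caf1Δ, ccr4Δ and caf1*ccr4*. Sums without it were not formed, so the lower sums do not describe the subtelomeric RNAs as a class. In wild type the RIP sums were 1800 to 1910 CPM. They were higher in rrp6Δ (2700 to 2750), caf1Δ (2280 to 2900), caf1*ccr4* (2470 to 2510) and caf1Δago1Δ (2740 to 2950). They were lower in ago1Δ (1220 to 1340) and mit1Δ (1120 to 1390) and overlapped with wild type in the other replicated mutants. Total RNA sums were lower in caf1Δ and clr4Δ (307 to 478 and 395 to 678 CPM) than in wild type (850 to 1570 CPM). The weight of nc-pho1 in RIP and total RNA was not tested.

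Few of the non-coding RNAs that could be measured lay under H3K9me2. In 1 wild-type ChIP library against 1 input library, 13 of the 1413 measured members stood at least 8-fold (3 on the log2 scale) above the median protein-coding gene, as did 17 of 5023 genes. In 10 of the 13 the log2 value was 7.47 to 9.0, in the other three 3.09 to 3.55, and the next member outside lay at 2.76. Of the 13, 6 were subtelomeric and 4 centromeric. Only 7 of the 32 centromeric and 39 of the 47 subtelomeric RNAs reached the 10 input counts needed. The mark on the others was not measured. The 10 highest summed to 35.6 to 41.9 CPM of pA RNA in clr4Δ, 30.8 to 31.1 CPM in clr3Δ, 20.0 to 27.7 CPM in ago1Δ, 20.0 to 21.7 CPM in rrp6Δ, 15.3 to 20.7 CPM in exo2Δ, 12.3 to 29.5 CPM in chp2Δ and 11.8 to 22.5 CPM in swi6Δ, against 3.85 to 8.89 CPM in wild type. The sums of mit1Δ (12.6 to 15.0 CPM), caf1Δ (10.7 to 12.4 CPM) and caf1*ccr4* (10.4 to 11.1 CPM) also lay above wild type, and those of mot2Δ and ccr4Δ overlapped with it. In RIP the sum was 65.3 to 73.9 CPM in clr4Δ, 47.0 to 69.2 CPM in clr3Δ and 46.5 to 96.2 CPM in caf1Δago1Δ, against 11.5 to 17.7 CPM in wild type. Every other replicated mutant lay above wild type in RIP as well, between 21.4 and 75.5 CPM, apart from swi6Δ. The swi6Δ sum, at 14.4 to 85.7 CPM, overlapped with wild type. Some of these libraries had low strand separation. In the rest the sums were 68.6 and 73.9 CPM in clr4Δ, 47.0 in clr3Δ, 21.4 and 37.8 in chp2Δ, 27.8 in mit1Δ and 14.4 in swi6Δ. Several RIP sums rest on few counts, with 14 in wild-type replicate 2 and 10 in chp2Δ replicate 2.

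prl107 (SPNCRNA.1704), antisense to the pyruvate decarboxylase gene pdc102 near the end of chromosome I, had the strongest H3K9me2 (log2 9.0) and rose in 10 of 12 mutants. Its pA level was 4.64 and 4.72 CPM in clr3Δ, 3.37 and 5.62 CPM in caf1*ccr4*, 3.58 and 4.75 CPM in caf1Δ, 2.66, 2.25, 1.95 and 2.98 CPM in chp2Δ and 2.87 and 2.47 CPM in clr4Δ, against 0.652, 0.452, 0.206 and 0.155 CPM in wild type. All of these libraries lay above wild type. The log2 fold changes were 3.63 in clr3Δ (edgeR adjusted p = 9.41e-05), 3.6 in caf1*ccr4* (6.86e-05), 3.46 in caf1Δ (0.000137), 2.7 in chp2Δ (0.002) and 2.81 in clr4Δ (0.00397). In mit1Δ, swi6Δ, ccr4Δ, ago1Δ and rrp6Δ they were 2.74, 2.55, 2.05, 1.90 and 1.75. In exo2Δ the value was 1.44 (adjusted p = 0.0516) and in mot2Δ −0.05 (adjusted p = 0.979). The level in wild type rested on few counts.

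SPNCRNA.1299, an intergenic RNA at the end of chromosome III with a log2 H3K9me2 of 7.51, had 11.5 and 8.74 CPM in clr3Δ, against 0.522, 1.10, 0.344 and 0.464 CPM in wild type (log2 fold change 4.04, edgeR adjusted p = 0.00143). The subtelomeric prl61 (SPNCRNA.61) had 5.73 and 5.33 CPM in clr3Δ, against 0.978, 0.258, 0.894 and 1.24 CPM in wild type (2.71). SPNCRNA.70, at the left end of chromosome I, had 3.08 and 3.59 CPM in exo2Δ, against 0.261, 0.387, 0.55 and 0.387 CPM in wild type (3.05, adjusted p = 0.012). SPNCRNA.1299 and SPNCRNA.70 recur in other places of the genome over 78.4% and 89.6% of their windows.

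SPNCRNA.863, on chromosome I between 2939138 and 2940765, stood apart by strain. It had 598 and 504 CPM of pA RNA in caf1*ccr4*, 225, 536 and 392 CPM in swi6Δ, 327, 700, 942 and 536 CPM in chp2Δ and 417 and 411 CPM in mit1Δ, against 4.63, 12.6, 3.02 and 4.25 CPM in wild type. The 11 libraries of these mutants had 225 to 942 CPM, and the 17 of the other mutants 3.18 to 19.9 CPM. In RIP the 12 libraries had 59.4 to 465 CPM and the other mutants 0 to 216 CPM, the highest in caf1Δ strain 591, while caf1Δ strain 510 had 7.09 CPM. The log2 fold changes in pA RNA were 6.48 in caf1*ccr4* (edgeR adjusted p = 3.91e-09), 6.67 in chp2Δ (2.03e-09), 6.07 in mit1Δ and 5.97 in swi6Δ. Of its 50-base windows 54.8% recur elsewhere in the genome and 46.8% match genes of the Tf2 retrotransposon. Of 13 Tf2 genes 4 passed the count filter in pA RNA, and these summed to 4.98 to 10.4 CPM in the same 11 libraries, against 6.57 to 12.8 CPM in wild type. As reads with several locations were kept only in heterochromatin, near-identical copies may not be counted in full. The 4 mutants and caf1Δ strain 591 are those listed without the otr1R::ura4+ reporter that wild type carries, so for this RNA mutation and strain background cannot be told apart.

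In RIP of the heterochromatin mutants the median change of non-coding RNAs followed the libraries of low strand separation. With all libraries it was 0.92 in swi6Δ, 0.71 in clr3Δ, 0.63 in chp2Δ, 0.55 in mit1Δ and 0.56 in clr4Δ. Without those libraries it was −0.26, −0.06, 0.00, −0.10 and −0.01. By edgeR clr3Δ had 3 higher and 7 lower of 1383, against 0.336 and 0.505% of all features, and clr4Δ had 2 higher and none lower, against 0.336 and 0.0% of all features. swi6Δ, chp2Δ, mit1Δ and ago1Δ had 1 higher each and none lower. Of all features 0.168% were higher and 0.0% lower in swi6Δ, 0.199 and 0.0% in chp2Δ, 0.153 and 0.0153% in mit1Δ and 0.352 and 0.0153% in ago1Δ.

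SPNCRNA.388, an intergenic RNA on chromosome II, was higher in RIP of several mutants. It had 390, 379, 309 and 146 CPM in mot2Δ, 185, 155 and 173 CPM in clr3Δ, 150, 142 and 144 CPM in clr4Δ and 103 and 191 CPM in caf1Δ, against 26.1 and 29.5 CPM in wild type, whereas rrp6Δ had 29.0 and 25.4 CPM. The log2 fold change in mot2Δ was 3.50 (edgeR adjusted p = 1.87e-06). SPNCRNA.716, antisense to SPAC56F8.12, had 34.8, 23.0 and 32.0 CPM in clr3Δ, 34.2 and 33.1 CPM in caf1Δ and 32.4, 22.2 and 26.7 CPM in caf1Δago1Δ, against 222 and 255 CPM in wild type. Both rest on the same 2 wild-type libraries of 1 strain, and in pA RNA SPNCRNA.388 had 5.87, 25.2, 1.65 and 1.24 CPM in wild type, a spread as wide as that between groups.

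In total RNA none of 1032 non-coding RNAs passed in caf1Δ, ago1Δ or clr4Δ by edgeR or DESeq2. No feature passed by edgeR (0.0% of all features). At an unadjusted p under 0.05 there were 16 non-coding RNAs in caf1Δ, 27 in ago1Δ and 19 in clr4Δ. With a replicate block 11 were called in caf1Δ, all lower, 13 in ago1Δ, 4 higher and 9 lower, and 0 in clr4Δ, with 72 at an unadjusted p under 0.05, though wild type shares only 1 replicate number with each mutant. In simulated data of the caf1Δ comparison the fit recovered none of the 4-fold changes, so this count sets no limit on changes in total RNA.

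The hexamer TNAAAC occurred in a similar share of the RNAs higher in rrp6Δ and of those not called, at a somewhat higher density per kb in the former. It occurred in 83.9% of those higher in rrp6Δ pA RNA (480 of 572) at 2.12 per kb, in 83.8% of those not called at 1.90 per kb and in 87.9% of those lower at 1.70 per kb. These groups had median lengths of 999, 1153 and 1320 bases. Of the 50 largest rises, 44 had a position, and 65.9% of them held the hexamer, at 2.59 per kb and a median length of 429 bases. The differences in density were not tested. meu3 carries 2 copies in its 744 bases, prl107 1 and SPNCRNA.863 4.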

How the data were processed

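The deposited files hold raw counts per feature and library (77 RNA libraries are used here, with 1 H3K9me2 ChIP and 1 input library of wild type). Per the study's methods and the submitters' processing notes, the authors aligned reads with STAR 2.7.3a, took out ribosomal reads and counted by strand on the PomBase annotation, in the intersection-strict manner of HTSeq. Reads with several locations were kept only in heterochromatin, which bears on repeated members. The genome build is not given in the sources used here, and positions and sequences are those of RefSeq ASM294v3, in which 1420 of the 1430 matched members have the same length as in the files.

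All genotypes of an assay entered 1 fit in R 4.3.3 with edgeR 4.0.16 (quasi-likelihood, TMM, two-sided), over features that reached 10 counts in 2 or more libraries, adjusted by Benjamini-Hochberg over all features. CPM are scaled by TMM and TPM to the protein-coding genes. Alternatives were DESeq2 1.42.0, RLE size factors, no count filter, a protein-coding scale, a replicate block and leaving out each library. On simulated data of this design 54.5% of 2-fold and 69.7% of 4-fold changes were recovered for rrp6Δ in pA RNA, 39.4% and 59.6% in RIP, and none for caf1Δ in total RNA. Limits set at 3 counts cover counting error only. Strand separation used 416 antisense RNAs at least 80% inside a gene, of which those opposite the top 10% of genes were read, with more than 10% of the gene called low. Centromeric members were those in the longest stretch without a protein-coding gene (39.2, 51.5 and 78.2 kb on chromosomes I, II and III), since the reference used here marks no centromere with these bounds, which departs from the planned definition. Copies were found by 50-base windows. Named RNAs were, per comparison, those called, without overlap with wild type and at 1 CPM or more, of largest log2 fold change (up to 6 higher and 3 lower, or 2 and 2 where fewer than 20 were called), the 6 highest in wild type per assay, the RNAs with names, SPNCRNA.70 and the 3 most extreme each way in direct contrasts and interactions. SPNCRNA.231, SPNCRNA.234, SPNCRNA.388 and SPNCRNA.716 and the use of SPNCRNA.863 across strains were chosen after values were seen. The members and lists were chosen with earlier results of these data known.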

Additional observations from a re-analysis of the deposited data

Results flagged for a closer look

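A library far from the others was looked for in 22 sets of values, each from a group of 4 libraries. Chance flags about 1 in 20 of independent sets, but several of these sets came from the same libraries. In RIP, mot2Δ replicate 5 had 12.8% of its counts on non-coding RNAs and 8.32% on those not antisense to a gene, above the other mot2Δ libraries. This library held 358668 counts, against 1278952 to 3376525 in the other 3 mot2Δ libraries. In pA RNA, chp2Δ replicate 2 had the highest antisense level relative to the opposite gene of its group, 14.759%, and wild-type replicate 2, of strain 65, the highest of wild type, 1.733%. SPNCRNA.133 reached 428 TPM in 1 wild-type pA library, far from the other libraries.

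The changes of pA RNA and of RIP against wild type differed, by the interaction of assay and genotype, in 108 non-coding RNAs in rrp6Δ and 14 in exo2Δ.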

How the results depend on the processing

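The numbers of called non-coding RNAs stayed within 1.5 times of those given above without a count filter in all 30 results, with RLE size factors in 29, with a protein-coding scale in 28, with the replicate block in 25, without the libraries of low strand separation in 15 of 27 and by DESeq2 in 12 of 28. RLE gave 2 for RIP ago1Δ, and the protein-coding scale 29 for pA clr4Δ and 0 for RIP ago1Δ. DESeq2 gave, in pA RNA, 141 for mot2Δ, 44 for clr3Δ, 6 for chp2Δ, 244 for caf1Δ, 108 for ccr4Δ and 94 for clr4Δ, and in RIP 43 for mot2Δ, 88 for caf1*ccr4*, 7 for swi6Δ, 22 for clr3Δ, 2 each for chp2Δ and mit1Δ, 35 for rrp6Δ, 21 for caf1Δ, 17 for exo2Δ and 6 for ago1Δ. Without the libraries of low strand separation, chosen after seeing the data, there were 85 in swi6Δ, 327 in ago1Δ and 62 in clr4Δ in pA RNA, and 49 in mot2Δ, 77 in caf1*ccr4*, 0 in swi6Δ, 36 in rrp6Δ, 29 in caf1Δ, 16 in exo2Δ and 6 in ago1Δ in RIP, with 164 and 33 in the interactions of rrp6Δ and exo2Δ. The difference of the log2 ratio of pA RNA to RIP, −1.14, was −0.78 with at least 1 count in every library. The causes were not tested.

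With the replicate block there were 51 in mot2Δ and 33 in clr4Δ in pA RNA, 2 in RIP swi6Δ, and 11 in caf1Δ and 13 in ago1Δ in total RNA, and no other count moved by over 1.5 times. Libraries of 1 number deviated together at a median correlation of 0.021 in pA RNA and 0.01 in RIP. Of these pairs, 63 of 163 in pA RNA and 52 of 166 in RIP were over 0.1. The numbers thus do not pair these samples as a whole, and pairing within some of the strains was not tested. Low strand separation in RIP fell on replicates 1 and 2 of swi6Δ, clr3Δ, chp2Δ and mit1Δ alike. In total RNA the median correlation was 0.717, but wild type (numbers 2 and 3) shares 1 number with each mutant (1 and 2). The block there thus compares through 1 wild-type library.

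Leaving out 1 library gave, in pA RNA, 18 to 109 in mot2Δ, 50 to 253 in caf1*ccr4*, 53 to 591 in swi6Δ, 4 to 31 in clr3Δ, 3 to 4 in chp2Δ, 1 to 5 in mit1Δ, 405 to 704 in rrp6Δ, 67 to 196 in caf1Δ, 120 to 392 in exo2Δ, 7 to 66 in ccr4Δ, 70 to 367 in ago1Δ, 2 to 221 in clr4Δ and 147 to 216 in rrp6Δ against exo2Δ. In RIP it gave 10 to 29 in mot2Δ, 9 to 196 in caf1*ccr4*, 0 to 17 in swi6Δ, 6 to 10 in clr3Δ, 0 to 1 in chp2Δ, mit1Δ and clr4Δ, 5 to 13 in rrp6Δ, 2 to 14 in caf1Δ, 1 to 6 in exo2Δ, 0 in ago1Δ and 21 to 42 in caf1Δago1Δ. The difference of the pA to RIP ratio lay between −1.23 and −0.85, and that of pA to total RNA between −1.26 and 0.35, reversed without total RNA wild-type replicate 2. Total RNA stayed at 0, and the interactions gave 39 to 149 in rrp6Δ and 2 to 36 in exo2Δ. Where 1 library of a mutant was left, it was taken to vary like the other groups.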
